A study of Mus musculus with 4 samples.

Results

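The nociceptor and sensory ganglion genes were AVIL, PRPH, MRGPRD, TRPV1, P2RX3, PIRT, CALCA, CALCB and POU4F1, 9 of the 14718 gene symbols listed in RNA-seq of the injured spinal cord. They were selected by symbol, with their measured values in these same groups already known, so their levels are given as a description and nothing is tested on them. Of the 9, 4 were listed at 7 days post injury (dpi), 8 at 21 dpi and 3 at both. PRPH was the member not listed at 21 dpi, whereas AVIL, MRGPRD, TRPV1, P2RX3 and PIRT were not listed at 7 dpi.

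The study compared male targeted replacement mice, in which the coding region of human ApoE3 or human ApoE4 takes the place of the mouse gene, after a contusion spinal cord injury (SCI). Mice 3 to 5 months old received a 50 kdyne impact at thoracic level T9 under isoflurane, and a segment of about 4 mm around the lesion was taken. The 4 groups were ApoE3 at 7 dpi, ApoE4 at 7 dpi, ApoE3 at 21 dpi and ApoE4 at 21 dpi, all injured, with no uninjured group among them. Each group is given as 1 value per gene, although the methods name 3 mice per genotype and time point, and 1 replicate of the study, whose group is not given in the sources used here, aligned less well than the others. No spread between mice can therefore be computed, and no difference below has a replicate check.

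Levels are in FPKM (fragments counted per length of transcript and per total of fragments), which allows genes of different length to be set side by side. The number of reads behind a value is unknown. Each ratio is log2((FPKM in ApoE3 + 1)/(FPKM in ApoE4 + 1)), so that a positive ratio means a higher level in ApoE3, and a difference of at least 2-fold means a ratio of at least 1 or at most -1 on that scale, which understates differences between low values. The genotype of the value columns has a second reading. Each comparison is named ApoE3 versus ApoE4 and its ratio is taken that way here. The numbering of the sample columns would instead pair the numerator with ApoE4. Under that second reading every direction between genotypes below would be the opposite. At 21 dpi the paper's text describes more genes higher in ApoE4 than in ApoE3, the direction of the reading used here. By other methods and at other times after injury, it describes GFAP as higher in ApoE4, the direction found here at 21 dpi. It describes GAP43 and SNAP25 as lower in ApoE4, the opposite of the direction found here at 21 dpi.

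Nociceptors are the sensory neurons that detect heat, chemicals, tissue damage and harmful pressure. Their cell bodies lie in the dorsal root ganglia beside the spinal cord, wrapped by satellite glia, and their axons run with Schwann cells through the dorsal roots into the dorsal horn. Some of the genes also have a source inside the cord, since motor neurons make CALCA, CALCB and PRPH, and some spinal neurons make POU4F1.

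The tissue label fitted the levels of spinal cord markers in all 4 groups. MBP, the myelin basic protein gene, was at 120571 (ApoE3) and 127575 FPKM (ApoE4) at 7 dpi, and at 201348 and 278678 FPKM at 21 dpi. GFAP, the intermediate filament gene of astrocytes, was at 12395 (ApoE3) and 12386 FPKM (ApoE4) at 7 dpi, and at 8201 and 15313 at 21 dpi. SNAP25, a synaptic vesicle fusion gene, was at 3366 and 2545 FPKM at 7 dpi and at 5336 and 7812 FPKM at 21 dpi, again in the order ApoE3, ApoE4. APOE itself, not listed at 7 dpi, was at 843 (ApoE3) and 1311 FPKM (ApoE4) at 21 dpi. How reads of the human coding regions were counted is not given in the sources used here, so these values do not check the genotype labels.

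The bulk of all genes lay at different ratios at the time points. At 7 dpi the median ratio was 0.0018 over genes whose mean level reached 1 FPKM, and at 21 dpi it was -0.42. Of all genes with a value at 21 dpi, whatever their level, 93.8% were lower in ApoE3. Ratios relative to all genes, called centred below, have this median subtracted.

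The promoters of AVIL, MRGPRD, TRPV1 and CALCA are shown because the levels of AVIL, MRGPRD and TRPV1 were near or at 0 in ApoE4 at 21 dpi, whereas CALCA was the most abundant of the genes in every group. RefSeq promoters of build GRCm38.p6, from 250 bases before to 50 bases after the start of the gene, were found for 6 of the 9 genes, with no entry for P2RX3, PIRT and CALCB. Capitals mark any match, on either strand, to TATAAA (the TATA box), TGACG (a core of the cAMP response element), TGTGGT (a core bound by RUNX factors) or TAATTA (a core bound by homeodomain factors). Each is written 5′ to 3′ on the strand of the gene: AVIL at chr10:127000459-127000758 on the plus strand, MRGPRD at chr7:145314585-145314884 on the plus strand, TRPV1 at chr11:73233899-73234198 on the plus strand and CALCA at chr7:114636308-114636607 on the minus strand.
AVIL: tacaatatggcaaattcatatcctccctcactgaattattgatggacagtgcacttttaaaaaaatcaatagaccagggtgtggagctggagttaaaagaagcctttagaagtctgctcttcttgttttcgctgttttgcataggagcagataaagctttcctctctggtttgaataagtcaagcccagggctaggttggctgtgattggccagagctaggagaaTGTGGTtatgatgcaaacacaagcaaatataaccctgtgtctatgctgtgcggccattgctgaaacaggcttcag
MRGPRD: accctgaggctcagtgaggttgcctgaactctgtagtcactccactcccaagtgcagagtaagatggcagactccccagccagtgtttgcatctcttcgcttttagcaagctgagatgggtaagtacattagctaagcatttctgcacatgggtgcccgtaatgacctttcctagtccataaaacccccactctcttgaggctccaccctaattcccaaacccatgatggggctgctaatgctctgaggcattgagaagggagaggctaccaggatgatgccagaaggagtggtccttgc
TRPV1: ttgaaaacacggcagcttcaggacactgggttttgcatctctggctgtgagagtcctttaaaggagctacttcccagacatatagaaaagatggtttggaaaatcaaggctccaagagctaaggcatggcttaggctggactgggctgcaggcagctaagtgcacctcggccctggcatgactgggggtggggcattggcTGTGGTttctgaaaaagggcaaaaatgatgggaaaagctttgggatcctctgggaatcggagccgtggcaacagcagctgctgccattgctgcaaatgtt
CALCA: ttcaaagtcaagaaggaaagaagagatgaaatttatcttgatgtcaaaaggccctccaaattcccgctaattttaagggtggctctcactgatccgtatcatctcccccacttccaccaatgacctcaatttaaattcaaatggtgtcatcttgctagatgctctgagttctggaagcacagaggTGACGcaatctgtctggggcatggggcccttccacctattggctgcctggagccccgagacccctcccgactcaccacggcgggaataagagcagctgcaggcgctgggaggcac
TGTGGT began 25 bases before the start of AVIL and 50 bases before that of TRPV1, and TGACG began 65 bases before that of CALCA, each on the strand of the gene. None of the 4 motifs was in the window of MRGPRD. Of the remaining promoters, PRPH held TATAAA, beginning 31 bases before its start, and POU4F1 held none of the 4. No matches overlapped. Of all 32851 promoters of the same length, 13.6% held TATAAA, 20.8% TGACG, 16.8% TGTGGT and 5.29% TAATTA on either strand. A match describes the letters in this window and was not tested as a binding site.

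At 21 dpi, 5 of the 8 listed genes were at least 2-fold higher in ApoE3 and 1 was at least 2-fold lower. Among all 11472 genes listed at that time, 85 (0.741%) were at least 2-fold higher in ApoE3 and 432 (3.77%) were at least 2-fold lower. On centred ratios 6 of the 8 were at least 2-fold higher and none was 2-fold lower, beside a background of 157 genes higher (1.37%) and 126 lower (1.10%). The genes were chosen with this comparison known, so nothing is read from their share. At 7 dpi, none of the 4 listed genes was 2-fold higher or lower in ApoE3, beside 48 (0.34%) higher and 36 (0.255%) lower among 14125 genes. In bulk tissue, fewer cells of a type and less RNA per cell cannot be told apart.

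**Figure D1:**
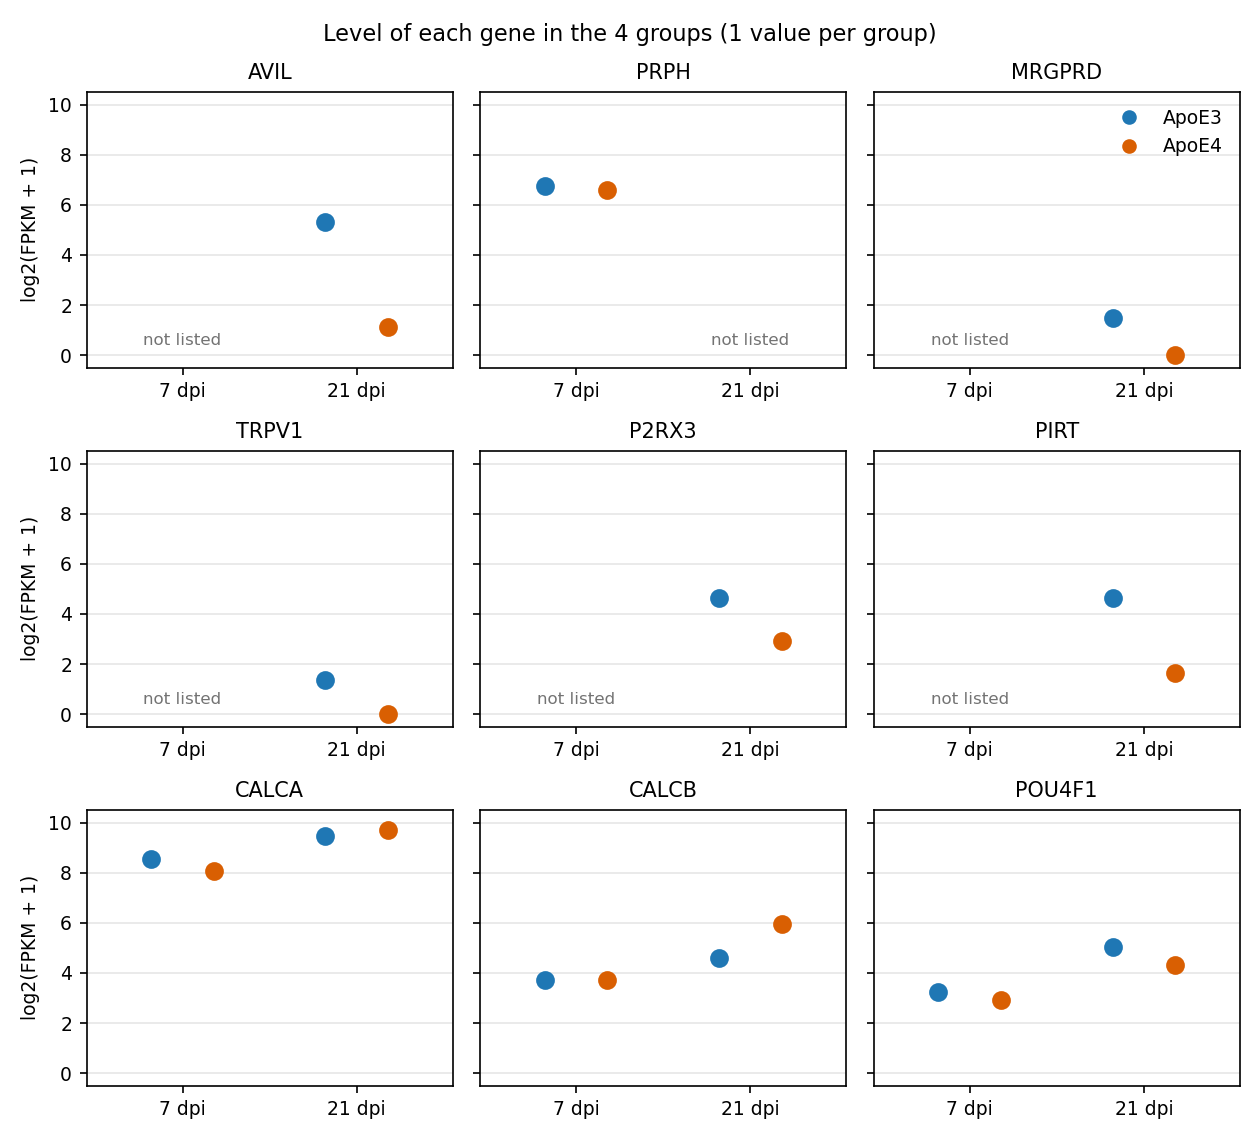
Level of each of the 9 genes, as log2(FPKM + 1), at 7 and 21 dpi, with 1 point per group in blue for ApoE3 and orange for ApoE4. AVIL, PIRT and P2RX3 have widely separated points at 21 dpi, MRGPRD and TRPV1 lie at 0 in ApoE4, and CALCA and CALCB have their higher point in ApoE4 at 21 dpi (for CALCA, the direction turns once ratios are centred on all genes).

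AVIL and PRPH belong to the cytoskeleton. AVIL encodes advillin, an actin-binding protein of the gelsolin and villin family made by peripheral sensory neurons. At 21 dpi it was at 39.1 FPKM in ApoE3 and 1.20 FPKM in ApoE4. The ApoE3 level exceeded that of 58.7% of listed genes or equalled it, and the ApoE4 level that of 0.959%, so that AVIL was mid-range in ApoE3 and among the lowest genes in ApoE4. Its ratio was 4.19, or 18.3-fold on the FPKM + 1 scale, rank 4 of 11472. It moved to 4.92 with a pseudocount of 0.1 and to 5.02 with 0.01.
PRPH encodes peripherin, the intermediate filament of neurons with axons outside the brain and cord. At 7 dpi it was at 105.9 FPKM in ApoE3 and 94.1 in ApoE4, a ratio of 0.17. Both levels were high and close to each other, and the direction turned relative to the pan-neuronal genes (-0.085).

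MRGPRD, TRPV1, P2RX3 and PIRT encode receptors, channels and a channel partner at the nociceptor membrane, and all 4 were listed at 21 dpi only. MRGPRD is a G protein-coupled receptor of nociceptors that lack neuropeptides. It was at 1.80 FPKM in ApoE3 and listed at 0 in ApoE4. TRPV1, the cation channel opened by heat and capsaicin, was at 1.61 FPKM in ApoE3 and was likewise listed at 0 in ApoE4. No fold is given against a group at 0. On the log2(FPKM + 1) scale, where the pseudocount sets the size of such a difference, both lay past the limit of 1, and TRPV1 was the nearest to it among the genes past it that were higher in ApoE3.
Listing itself bears on these values. Every gene listed at 21 dpi reached at least 0.947 FPKM in ApoE3 or ApoE4, and MRGPRD and TRPV1 reached it in ApoE3 only, so a gene of this kind had to differ to be listed at all. In ApoE4, 18 genes in all were listed at 0 at 21 dpi and in ApoE3 there were 41. Without MRGPRD and TRPV1, an alternative chosen after the values were seen, 3 of 6 genes were at least 2-fold higher in ApoE3. Among all genes at 21 dpi without those listed at 0, 69 of 11413 (0.605%) were.

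P2RX3 is an ATP-gated cation channel of sensory neurons. At 21 dpi it was at 24.1 FPKM in ApoE3 and 6.51 in ApoE4. The ApoE4 group was the lower of both but was well above 0. The ratio was 1.74, rank 29 of 11472. PIRT, a membrane protein that binds TRPV1 and adjusts its opening, was at 23.5 FPKM in ApoE3 and 2.13 in ApoE4. In ApoE3 its level was thus close to that of P2RX3, and in ApoE4 it was lower. The ratio of PIRT was 2.97, rank 9 of 11472.

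CALCA and CALCB encode the alpha and beta forms of calcitonin gene-related peptide, a neuropeptide released by peptidergic nociceptors. They are paralogs of similar sequence, and how reads that match both were counted is not given in the sources used here, so each level is uncertain. At 7 dpi CALCA was at 377 FPKM in ApoE3 and 269 in ApoE4, and at 702 and 830 FPKM at 21 dpi. It was high in all 4 groups, and ApoE3 had the higher level at 7 dpi but ApoE4 at 21 dpi. The ratio was 0.48 at 7 dpi and -0.24 at 21 dpi, and the value at 21 dpi turned to 0.18 when centred on all genes and to 0.15 relative to the pan-neuronal genes.
At 7 dpi CALCB was at 12.3 FPKM in ApoE3 and 12.1 in ApoE4, with a ratio of 0.021. At 21 dpi it was at 23.5 FPKM in ApoE3 and 60.6 in ApoE4. The genotypes were nearly equal at 7 dpi, and ApoE4 was the higher at 21 dpi, with a ratio of -1.33 and a centred ratio of -0.91, which is no longer 2-fold. CALCB ranked 157 from the lowest ratio among 11472 genes. At 7 dpi its direction turned relative to the pan-neuronal genes (-0.23).

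POU4F1 encodes the homeodomain transcription factor BRN3A, needed for the development of sensory neurons. At 7 dpi it was at 8.38 FPKM in ApoE3 and 6.64 in ApoE4, and at 32.1 and 18.8 FPKM at 21 dpi. ApoE3 was the higher group at both time points. The ratio was 0.30 at 7 dpi and 0.75 at 21 dpi, the latter being the nearest to 1 among the genes short of 2-fold. Centred, it was 1.17.

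**Figure D2:**
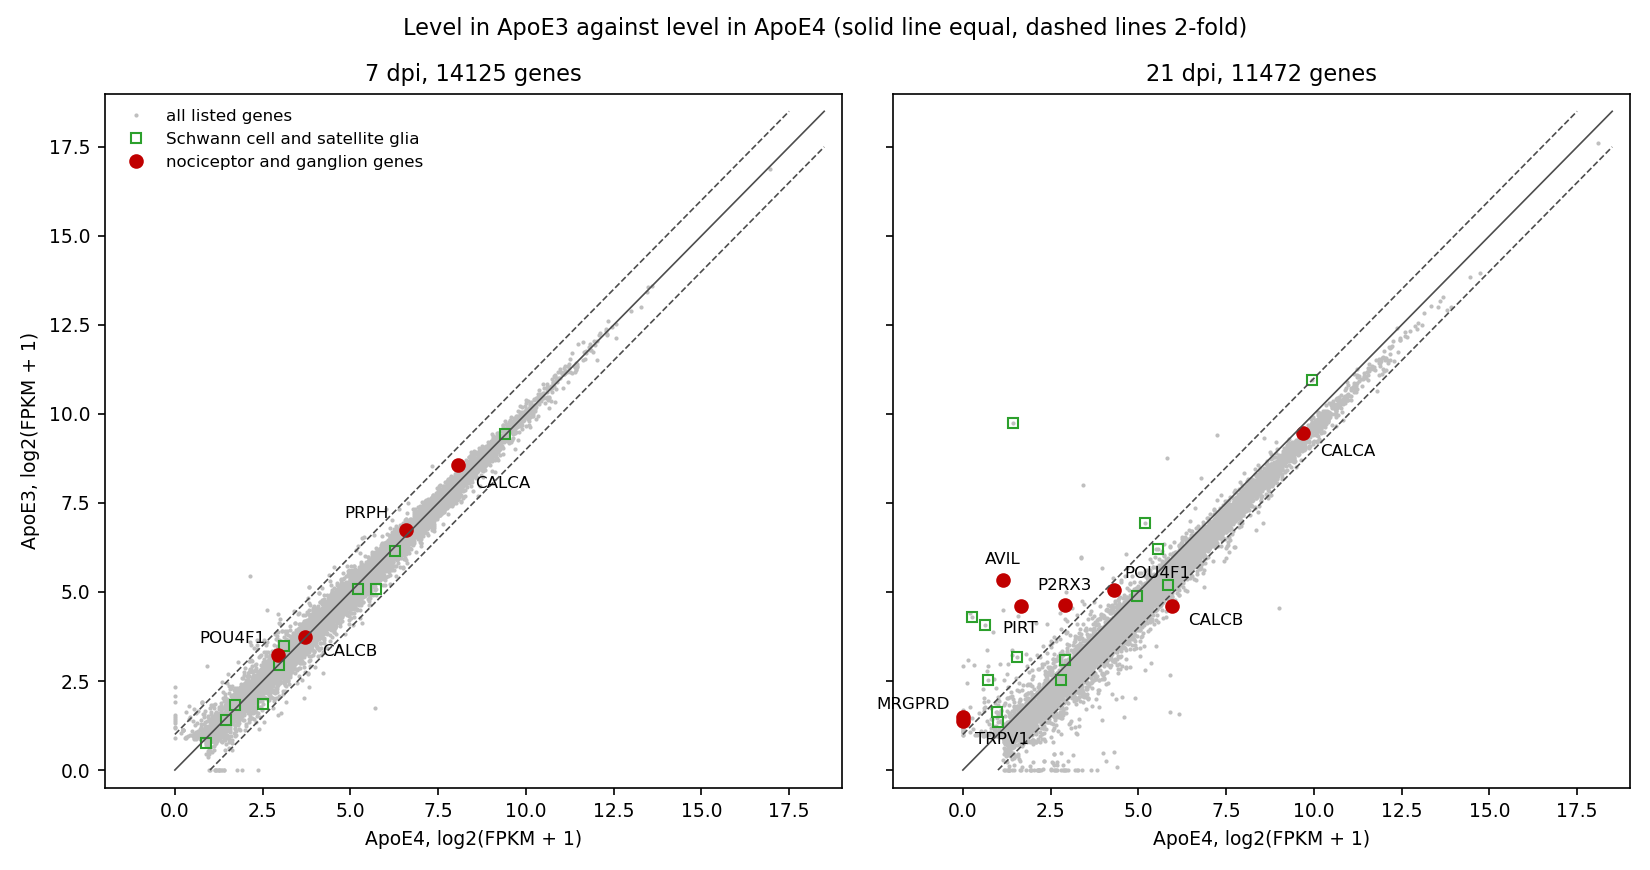
Level in ApoE3 against level in ApoE4, both as log2(FPKM + 1), for all listed genes in grey at 7 dpi and 21 dpi, with the nociceptor and ganglion genes in red and the Schwann cell and satellite glia list as green squares; the solid line marks equal levels and the dashed lines a 2-fold difference. At 7 dpi the red points lie between the dashed lines, and at 21 dpi AVIL, PIRT, P2RX3, MRGPRD and TRPV1 lie above them, CALCB lies below, and the grey cloud as a whole lies under the line of equal levels.

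The order of levels within a group differed between the genotypes at 21 dpi. In ApoE3 it was CALCA, AVIL, POU4F1, P2RX3, PIRT, CALCB, MRGPRD and TRPV1, from high to low. In ApoE4 it was CALCA, CALCB, POU4F1, P2RX3, PIRT and AVIL, with MRGPRD and TRPV1 at 0. AVIL stood next to the top in ApoE3 and at the bottom of the genes above 0 in ApoE4, whereas CALCB stood below PIRT in ApoE3 and next to the top in ApoE4. At 7 dpi the order was CALCA, PRPH, CALCB and POU4F1 in both genotypes. With 1 value per group, whether neighbours in these orders differ beyond the spread between mice cannot be told. The summed level of the 8 genes at 21 dpi was 848 FPKM in ApoE3 and 919 in ApoE4, and without CALCA it was 145.7 and 89.2 FPKM. The sum was thus set by CALCA, and its direction by whether CALCA was counted.

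The median ratio of the listed genes was 0.23 at 7 dpi and 1.43 at 21 dpi, and 0.23 and 1.86 when centred. All 4 genes at 7 dpi were higher in ApoE3, as were 50.4% of all genes, and their median relative to the pan-neuronal genes was -0.021. At 21 dpi 6 of 8 were higher in ApoE3, beside 6.15% of all genes. When centred, 7 of 8 were higher, with CALCB the exception, beside 50.03% of all genes.

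Levels at 7 and 21 dpi can be set side by side only, because the time points were compared separately and may have been scaled separately. The 3 genes listed at both, with the levels given above, were each higher at 21 dpi in both genotypes, by log2 ratios of 0.89 (CALCA), 0.89 (CALCB) and 1.82 (POU4F1) in ApoE3 and of 1.62, 2.24 and 1.37 in ApoE4. The median of the pan-neuronal genes over the same interval was 0.84 in ApoE3 and 1.66 in ApoE4, and that of all genes 0.089 and 0.53.

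Over the 4 groups, the genes nearest in profile to the mean of CALCA, CALCB and POU4F1 were CAMKV, PCP4L1, TMEM266, TUBB3, RAB3B, RTL8A, BEX3, ANKRD13D, RTN2 and SLC30A3. Likeness was the Euclidean distance between log2(FPKM + 1) values with the mean of each gene removed, among 10861 genes other than the 9, listed at both time points and with a mean of at least 1 FPKM over the groups. The distances ran from 0.035 for CAMKV to 0.094 for SLC30A3. At 7 dpi CAMKV was at 46.9 FPKM in ApoE3 and 37.8 in ApoE4, and at 106.4 and 128.5 at 21 dpi, so that ApoE3 was higher at 7 dpi and ApoE4 at 21 dpi. CALCA (0.26), POU4F1 (0.73) and CALCB (0.77) themselves lay farther from their mean than these 10 genes did. Only 4 values enter each profile.

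Other genes of sensory ganglion neurons, from a list of 27, also had higher levels in ApoE3 at 21 dpi. Of the 27, 19 were listed, with 18 higher in ApoE3 (all 19 when centred), 10 at least 2-fold higher and none 2-fold lower, and a median ratio of 1.13 (1.56 centred). SCN10A, a sodium channel gene of nociceptors, was at 20.1 FPKM in ApoE3 and 0.153 in ApoE4. FXYD2, a sodium pump subunit, was at 60.8 FPKM in ApoE3 and 9.29 in ApoE4. Both genes were higher in ApoE3 than in ApoE4, as were AVIL and PIRT. PRRXL1, a homeodomain factor also made in the dorsal horn and the most abundant of the list, was at 60.9 FPKM in ApoE3 and 64.5 in ApoE4. The summed level was 335 FPKM in ApoE3 and 177 in ApoE4. Here too listing bears on the count, since 9 of the 19 were under 1 FPKM in ApoE4 and none in ApoE3. TRPA1, TRPM8, MRGPRA3, MRGPRX1, MRGPRB4, MRGPRB5, LPAR3 and NPPB were not listed.
At 7 dpi, 8 of these 27 genes were listed, 5 higher and 3 lower in ApoE3, with none 2-fold either way. Their median ratio was 0.080, and their summed level was 141.8 FPKM in ApoE3 and 146.4 in ApoE4. FXYD2 was at 2.92 FPKM in ApoE3 and 3.86 in ApoE4, and PIEZO2, a touch channel gene and the most abundant, was at 64.1 and 72.5. SCN10A and PRDM12 were not listed at 7 dpi.

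Most listed genes from a list for large-diameter sensory neurons, which carry touch and limb position, did not show the same direction. The part of cord cells in the levels of this list was not tested, so the list does not single out ganglion neurons. At 21 dpi 9 of 12 were listed, of which 1 was higher and 8 lower in ApoE3 (2 and 7 when centred), with a median ratio of -0.50 (-0.081 centred). NEFH, the heavy neurofilament gene, was at 301 FPKM in ApoE3 and 543 in ApoE4. SLC17A7, a vesicular glutamate transporter gene, was the exception at 3.06 and 0.519 FPKM, at least 2-fold higher in ApoE3. SPP1, which macrophages also make and which was the most abundant, was at 918 and 1809 FPKM. The summed level was 2178 FPKM in ApoE3 and 3644 FPKM in ApoE4. The 10 of 12 listed at 7 dpi were split into 8 higher and 2 lower in ApoE3, with a median of 0.13 and sums of 1325 and 1197 FPKM.

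**Figure D3:**
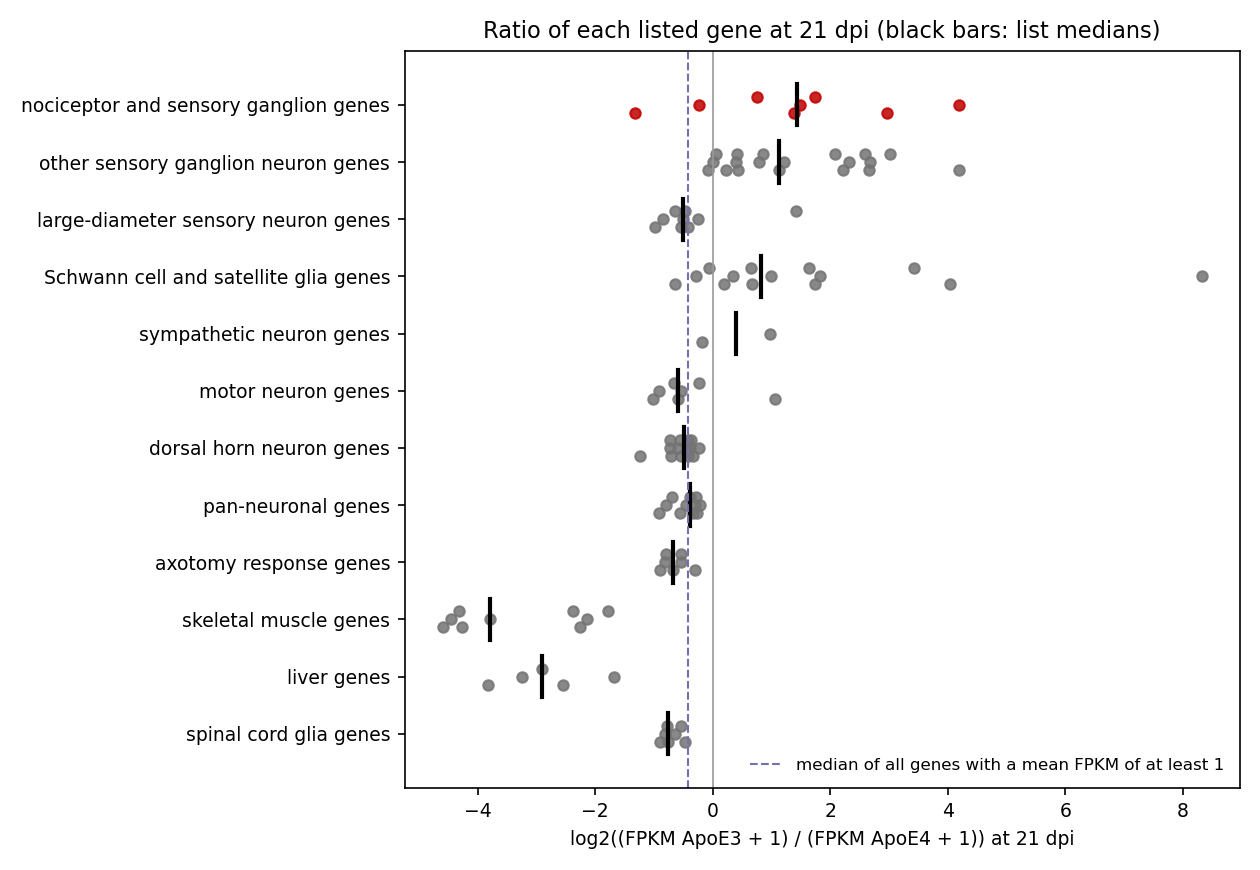
Log2 ratio of ApoE3 over ApoE4 at 21 dpi, with 1 point per listed gene, for the nociceptor and sensory ganglion genes (red) and 11 lists of other cell types and responses (grey); black bars are medians and the dashed line is the median of all genes that reached a mean FPKM of 1 (-0.42). Medians of the nociceptor and ganglion genes (1.43), the other sensory ganglion genes (1.13) and the Schwann cell and satellite glia genes (0.83) lie right of 0, as does that of the 2 listed sympathetic genes, and the skeletal muscle (-3.80) and liver (-2.90) medians lie far left.

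Markers of Schwann cells and satellite glia, the companions of sensory neurons in ganglia and roots, moved with the result at 21 dpi. Of 15 genes, 14 were listed, 11 higher and 3 lower in ApoE3 (13 and 1 when centred), 6 at least 2-fold higher and none 2-fold lower, with a median ratio of 0.83 (1.25 centred). Listing bears on these counts, since 4 of the 14 were under 1 FPKM in ApoE4 and none in ApoE3. PMP22, a peripheral myelin gene and the most abundant of the list, was at 1970.0 FPKM in ApoE3 and 992 in ApoE4. CLDN19 was at 18.6 FPKM in ApoE3 and 0.188 in ApoE4. The summed level was 3154 FPKM in ApoE3 and 1181 in ApoE4, no gene of the list was at 0, and PRX was not listed.
At 7 dpi 10 of the 15 were listed, 3 higher and 7 lower in ApoE3, with a median of -0.085. PMP22, again the most abundant, was at 693 FPKM in ApoE3 and 671 in ApoE4. The summed level was 853 FPKM in ApoE3 and 859.5 in ApoE4. Of the 4 groups, ApoE3 at 21 dpi thus had the highest PMP22 value, although the time points may have been scaled separately. The part of Schwann cells and satellite glia in the levels of AVIL, PIRT and P2RX3 was not tested.

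At 21 dpi 85 genes were at least 2-fold higher in ApoE3 on the log2(FPKM + 1) scale. Of these, 5 were AVIL, PIRT, P2RX3, MRGPRD and TRPV1, and 10 were other sensory ganglion genes. A further 6 were Schwann cell and satellite glia genes, 1 was SLC17A7 and 1 was the motor neuron gene ISL1. The rest were in none of the lists. The members and lists were chosen with these data known, so nothing is read from their share. Among the genes in none of the lists were FAM178B, at 256 FPKM in ApoE3 and 9.80 in ApoE4, and PLEKHA4, at 435 and 55.2. Both were named after their values were seen.

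Pan-neuronal genes, which are not particular to neurons of the cord, and dorsal horn neuron genes did not share the direction of AVIL, PIRT and P2RX3 before centring. At 21 dpi 11 of 13 pan-neuronal genes had a value, and ApoE3 was the lower group for all 11 (6 higher and 5 lower when centred), with a median of -0.39, which lay at 0.032 when centred. SNAP25 was the most abundant, and the summed level was 13199 FPKM in ApoE3 and 19582 in ApoE4. Dorsal horn neuron genes, which mark the cells that receive nociceptor input, had 14 of 17 listed, with ApoE3 the lower group for all 14 (5 higher and 9 lower when centred), and a median of -0.49. TAC1, the substance P gene that nociceptors also make, was at 78.8 FPKM in ApoE3 and 188 in ApoE4. PENK, the enkephalin gene and the most abundant of that list, was at 524 and 763 FPKM, and the summed level was 2117 FPKM in ApoE3 and 3092 in ApoE4. TAC1 lay on the same side as CALCB, another neuropeptide gene, as did 93.8% of all genes at 21 dpi. Centred, TAC1 was at -0.82 and CALCB at -0.91, whereas the neuropeptide gene CALCA was at 0.18.
At 7 dpi all 12 listed pan-neuronal genes and 16 of 17 dorsal horn genes were higher in ApoE3, with medians of 0.25 and 0.22. The summed levels in ApoE3 and ApoE4 were 11041 and 8745 FPKM for the pan-neuronal list and 1344 and 1110 for the dorsal horn list. The median of the 4 members listed at 7 dpi was 0.23.

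Motor neuron genes bear on CALCA, CALCB and PRPH, which motor neurons share. At 21 dpi 7 of 8 were listed, 1 higher and 6 lower in ApoE3 (2 and 5 when centred), with a median of -0.59 (-0.17 centred) and a summed level of 84.0 FPKM in ApoE3 and 155.9 in ApoE4. CHODL, the most abundant, was at 37.2 and 76.4 FPKM, and SLC18A3, the vesicular acetylcholine transporter gene, was at 28.3 and 54.4. ISL1, which sensory neurons also make, was the exception, at 3.15 FPKM in ApoE3 and with a ratio of 1.05. At 7 dpi 6 of 8 were listed, 5 higher and 1 lower in ApoE3, with a median of 0.29 and sums of 93.5 and 76.7 FPKM. The part of motor neurons in the levels of CALCA, CALCB and PRPH was not tested.
Sympathetic neuron genes had 1 of 9 listed at 7 dpi and 2 at 21 dpi. At 7 dpi TH was at 1.04 FPKM in ApoE3 and 0.83 in ApoE4, and at 5.89 and 6.84 at 21 dpi. GATA3 was at 7.98 and 3.59 FPKM at 21 dpi. DBH and PHOX2A, which help to define these cells, were not listed at either time. Axotomy response genes, which injured sensory and motor neurons switch on, had 7 of 9 listed at 21 dpi, all lower in ApoE3 (1 higher and 6 lower when centred), with a median of -0.67 (-0.25 centred) and sums of 288 FPKM in ApoE3 and 503 in ApoE4. GAP43, a growth cone gene and the most abundant, was at 136.4 and 236 FPKM. At 7 dpi all 9 were listed, 5 higher and 4 lower in ApoE3, with a median of 0.093 and sums of 941 and 769 FPKM.

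Markers of tissues outside the cord also differed at 21 dpi, in the other direction. Of 13 skeletal muscle genes 9 were listed, all 9 at least 2-fold lower in ApoE3, with a median of -3.80 and sums of 35.1 FPKM in ApoE3 and 737 in ApoE4. TNNT3, the most abundant, was at 22.5 FPKM in ApoE3 and 515 in ApoE4, and MYH4 was listed at 0 in ApoE3. Of 8 liver genes 5 were listed, all 5 at least 2-fold lower in ApoE3, with a median of -2.90 and sums of 10.3 and 117 FPKM, and APOA2 was the most abundant at 5.38 and 59.2. Listing bears on these counts too, since 3 of the 9 muscle genes and 2 of the 5 liver genes were under 1 FPKM in ApoE3 and none in ApoE4. At 7 dpi no liver gene was listed, and 7 muscle genes had a median of 0.34 and sums of 66.6 and 43.3 FPKM. Spinal cord glia genes had 7 of 8 listed at 21 dpi, all lower in ApoE3, with a median of -0.77 (-0.35 centred), sums of 227562 and 324708 FPKM and MBP the most abundant. At 7 dpi 6 of them were listed, with a median of 0.065 and sums of 137660 and 144197 FPKM. At 21 dpi ApoE4 was thus the genotype with the higher levels of muscle and liver genes, and ApoE3 the one with higher AVIL, PIRT, P2RX3 and PMP22. The part of these tissues in the levels of the nociceptor and ganglion genes was not tested, and with 1 value per group differences between mice and between genotypes cannot be told apart.

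**Figure D4:**
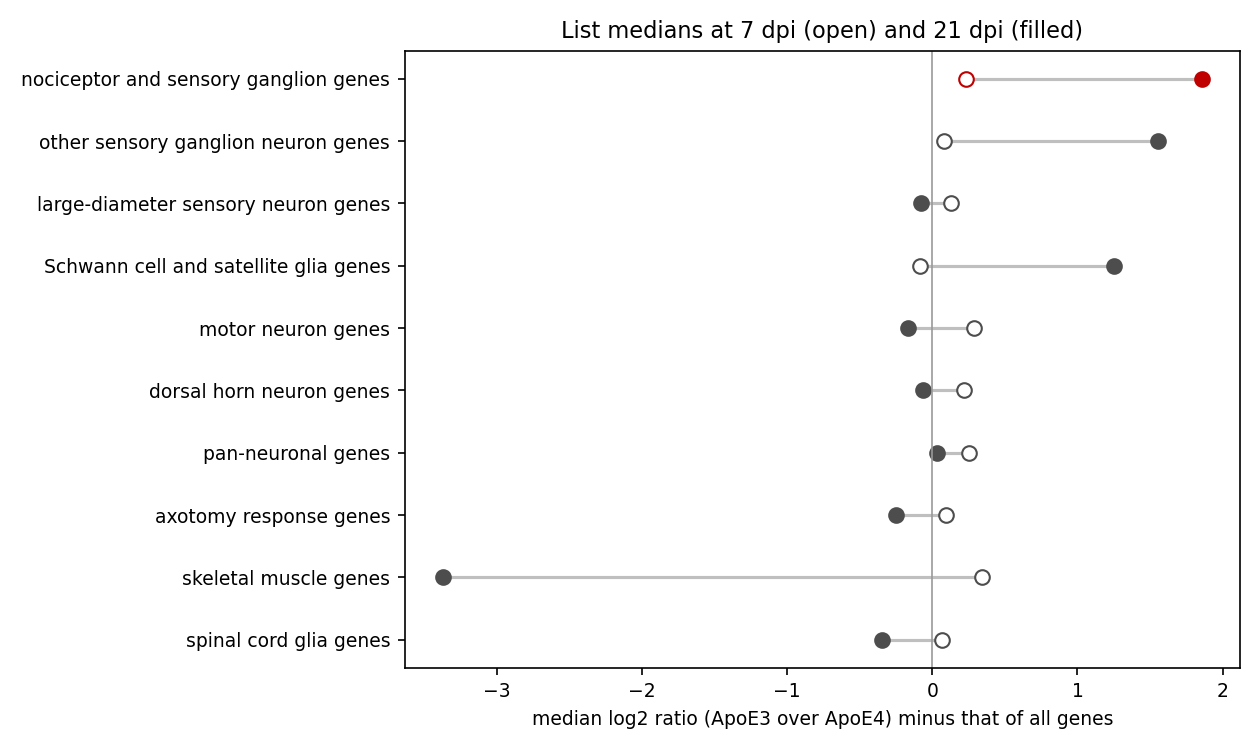
Median log2 ratio of each list relative to all genes at 7 dpi (open points) and 21 dpi (filled points), for lists with at least 3 genes listed at both times. The nociceptor and ganglion genes lie at 0.23 and 1.86, the other sensory ganglion genes at 0.078 and 1.56, and the Schwann cell and satellite glia genes at -0.087 and 1.25; different genes are listed at the 2 times, so the points are not the same sets.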

How the data were processed

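RNA from lesion segments of male ApoE3 and ApoE4 mice at 7 and 21 dpi was measured by RNA-seq. The authors aligned reads with STAR and Bowtie2, reduced all libraries to equal read numbers and deposited FPKM plus 1 from Cuffdiff, with 1 value per gene, genotype and time point. Versions in the submitters' processing notes were 2.5.4b (STAR), 0.1.7 (SAMtools) and 1.3.0 (Cuffdiff), and the build and annotation are not given in the sources used here. The deposited table also holds p-values, q-values, significance calls, fold changes and log2 fold changes of the authors' comparisons, and another deposited table their selected genes. None of these entered the results, but the deposited ratio was compared with the value columns to see which was its numerator. Value columns were assigned to genotypes by the sample names, the order of each named comparison and that ratio.

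From each value 1 was subtracted. Symbols on 2 lines of a time point, of which there were 2 at each, were averaged. Ratios used a pseudocount of 1, and a 2-fold difference on that scale was counted without a test, since 1 value per group gives no spread. Read depth per gene is unknown. Named genes were all 9 members, genes of 11 lists chosen by highest mean level or largest ratio, and the 10 nearest profiles, and the values of some list genes are not reported here. The members and lists were chosen with earlier results of these data known. No listed gene was in more than 1 list, and DRGX and TUSC5 were matched as PRRXL1 and TRARG1 through RefSeq synonyms. Alternatives were pseudocounts of 0.1 and 0.01, a minimum mean FPKM of 1, centring on all genes or on pan-neuronal genes, and limits of 1.3-fold and 4-fold. Python 3.11.15, numpy 2.4.6, pandas 2.3.3 and matplotlib 3.10.9 were used, and the procedure was tested on simulated data. Promoters were from RefSeq, build GRCm38.p6.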

Additional observations from a re-analysis of the deposited data

Results flagged for a closer look

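Some ratios of ApoE3 over ApoE4 had opposite directions at 7 and 21 dpi. None of these differences was tested, since each group has 1 value, and the median of all genes itself moved from 0.0018 to -0.42. The log2 ratio at 21 dpi minus that at 7 dpi was -0.72 for CALCA and -1.35 for CALCB. CALCA kept a positive ratio at both times when centred on all genes.

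List medians that turned negative at 21 dpi differed by -0.64 for large-diameter sensory neuron genes, -0.88 for motor neuron genes, -0.71 for dorsal horn neuron genes, -0.64 for pan-neuronal genes (positive at both times when centred), -0.77 for axotomy response genes, -4.14 for skeletal muscle genes and -0.83 for spinal cord glia genes. The median of the Schwann cell and satellite glia genes turned positive, with a difference of 0.91. The genes listed were not the same at both times.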

How the results depend on the processing

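Values were held to be unmoved when counts stayed within 1.5-fold and log2 ratios within log2 of 1.5 with the same sign. Of 26 alternative values for the counts and medians of the nociceptor and ganglion genes 19 did so, as did 52 of 59 for single genes and other lists. At 21 dpi the count at least 2-fold higher in ApoE3, 5 of 8, was 3 of 6 with a mean FPKM of at least 1, beside 0.614% of all genes so filtered. It was also 3 of 6 without the genes listed at 0 (chosen after seeing the data), beside 0.605%, and 2 of 8 at 4-fold, beside 23 of 11472 genes. These differences follow from fewer genes or a higher limit. The median of 1.43 was 2.64 and 2.67 with pseudocounts of 0.1 and 0.01, which widen ratios against 0. At 7 dpi the count of 0 was 1 of 4 at 1.3-fold, beside 3.78% of all genes.

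Relative to the pan-neuronal genes, the median at 7 dpi turned from 0.23 to -0.021, PRPH to -0.085 and CALCB to -0.23. At 21 dpi CALCA turned from -0.24 to 0.18 when centred on all genes and to 0.15 relative to the pan-neuronal genes, and the pan-neuronal median turned to 0.032 when centred. These turns follow from the median subtracted. AVIL moved from 4.19 to 4.92 and 5.02 with the smaller pseudocounts.

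No paired analysis was possible because each group has 1 value. The spread between mice, the reads behind each level and levels of genes not listed were not measurable here.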
